A study of Homo sapiens with 6 samples.

Results

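The genes described here encode the classical regulators of alternative splicing. They are the SR proteins (symbols SRSF followed by a number), the SR-like proteins TRA2A and TRA2B, the heterogeneous nuclear ribonucleoproteins (symbols beginning with HNRNP) and the CLK kinases CLK1 to CLK4. The families were chosen with earlier results of these data known, and their genes were then found by symbol. They numbered 43 of the 18216 genes in the expression table, with 12 SRSF, 2 TRA2, 25 hnRNP and 4 CLK genes. The measurements came from REH, an established human B-cell precursor acute lymphoblastic leukemia cell line, in which RNA was sequenced after 24 h with 200 nM SNS-032 (3 libraries) or with its solvent DMSO (3 libraries). SNS-032 blocks CDK9, the kinase that releases RNA polymerase II from promoter-proximal pausing. The paper describes it as an inhibitor of CDK2 and CDK7 as well, and the part of each kinase in the changes below was not tested. REH is a single line, and the labels do not say whether the 3 libraries of a treatment came from separate cultures, so the p-values below measure the spread between libraries, which may be technical.

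SR proteins carry RNA-recognition motifs and a domain rich in arginine-serine repeats, bind enhancer sequences in exons and recruit the spliceosome to nearby splice sites. CLK kinases in the nucleus, together with SRPK kinases in the cytoplasm, phosphorylate these repeats and so set where SR proteins reside and how actively they work, whereas hnRNPs coat nascent transcripts and often oppose SR proteins at splice sites. Many of these genes limit their own mRNA by including a "poison" exon or keeping an intron, which sends the transcript to nonsense-mediated decay (NMD) or holds it in the nucleus.

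Values were deposited as FPKM, that is, fragments per kilobase of transcript and per 1000000 mapped fragments, a unit scaled by gene length and by library. The number of reads per library was therefore unknown. Summed FPKM ran from 470095 to 491886 in the SNS-032 libraries and from 457826 to 464307 in the DMSO libraries, and the 50 most abundant genes held 29.2 to 31.4% against 21.0 to 21.3% of it. Pearson's r of log2(FPKM + 1) was 0.995 to 0.996 among SNS-032 libraries, 0.998 among DMSO libraries and 0.826 to 0.834 between the treatments. Of 12 markers of B-cell precursors, 11 reached 1 FPKM in both groups and 1, MME, in neither, and their summed level was 1159 to 1289 FPKM with SNS-032 and 1853 to 2000 FPKM with DMSO. Summed markers of other lineages were low but higher with SNS-032, at 2.95 to 4.93 against 0.50 to 0.56 FPKM for T cells, 19.4 to 22.4 against 9.03 to 9.38 FPKM for myeloid cells, 7 to 7.93 against 2.20 to 2.53 FPKM for erythroid cells and megakaryocytes, and 5.88 to 6.01 against 2.32 to 2.91 FPKM for tissues outside the blood. Their part in the results below was not tested.

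The splicing regulators moved in both directions after SNS-032. The transcripts of 3 CLK kinases, both TRA2 genes and several SR protein genes were more abundant relative to the rest of the transcriptome after treatment, and other SR protein genes and most tested hnRNP genes were less abundant. Differences were tested with limma on log2(FPKM + 1) over the 12239 genes that averaged at least 1 FPKM in either group, with Benjamini-Hochberg adjustment over all of them. Of the 38 splicing-regulator genes that passed this filter, 16 were higher and 19 lower with SNS-032 at an adjusted p under 0.05, and 3 did not pass. Over all genes tested, 39.9% were higher, 49.3% lower and 89.2% changed in either direction, so a call by itself was the common state of a gene here, and the direction and size of each change carry the description. Higher in SNS-032 were 3 of 4 CLK, both TRA2, 7 of 12 SRSF and 4 of 20 hnRNP genes, and lower were 0 CLK, 0 TRA2, 4 SRSF and 15 hnRNP genes. The median log2 fold change (SNS-032 over DMSO) was 0.54 for CLK, 0.84 for TRA2, 0.33 for SRSF and −0.61 for hnRNP genes, beside −0.14 over all genes tested. The SRSF values include SRSF12, which passed the filter only through its level in SNS-032. With a filter at 5 FPKM, which removed SRSF12 alone of the 38 genes, 6 of 11 SRSF genes were higher and 4 lower, with a median of 0.20, and 15 of all 37 genes were higher and 19 lower. Under that filter 3144 of the 9163 genes tested were higher and 5165 lower, with a median of −0.32.

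FPKM is relative to each library's total, so a change of all RNA per cell cannot be seen in it, and in these bulk samples fewer cells of a kind and less RNA per cell cannot be told apart. Centring every library on the median of the genes tested moved the median of all log2 fold changes by 0.30. Under that scaling 56.5% of all calls were toward higher, against 44.7% without it, and the family medians were 0.84 for CLK, 1.14 for TRA2, 0.63 for SRSF and −0.31 for hnRNP genes. The medians of SRSF and hnRNP genes had opposite signs under both scalings. Genes with small changes moved across the threshold, and they are named where their values are given.

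**Figure D1:**
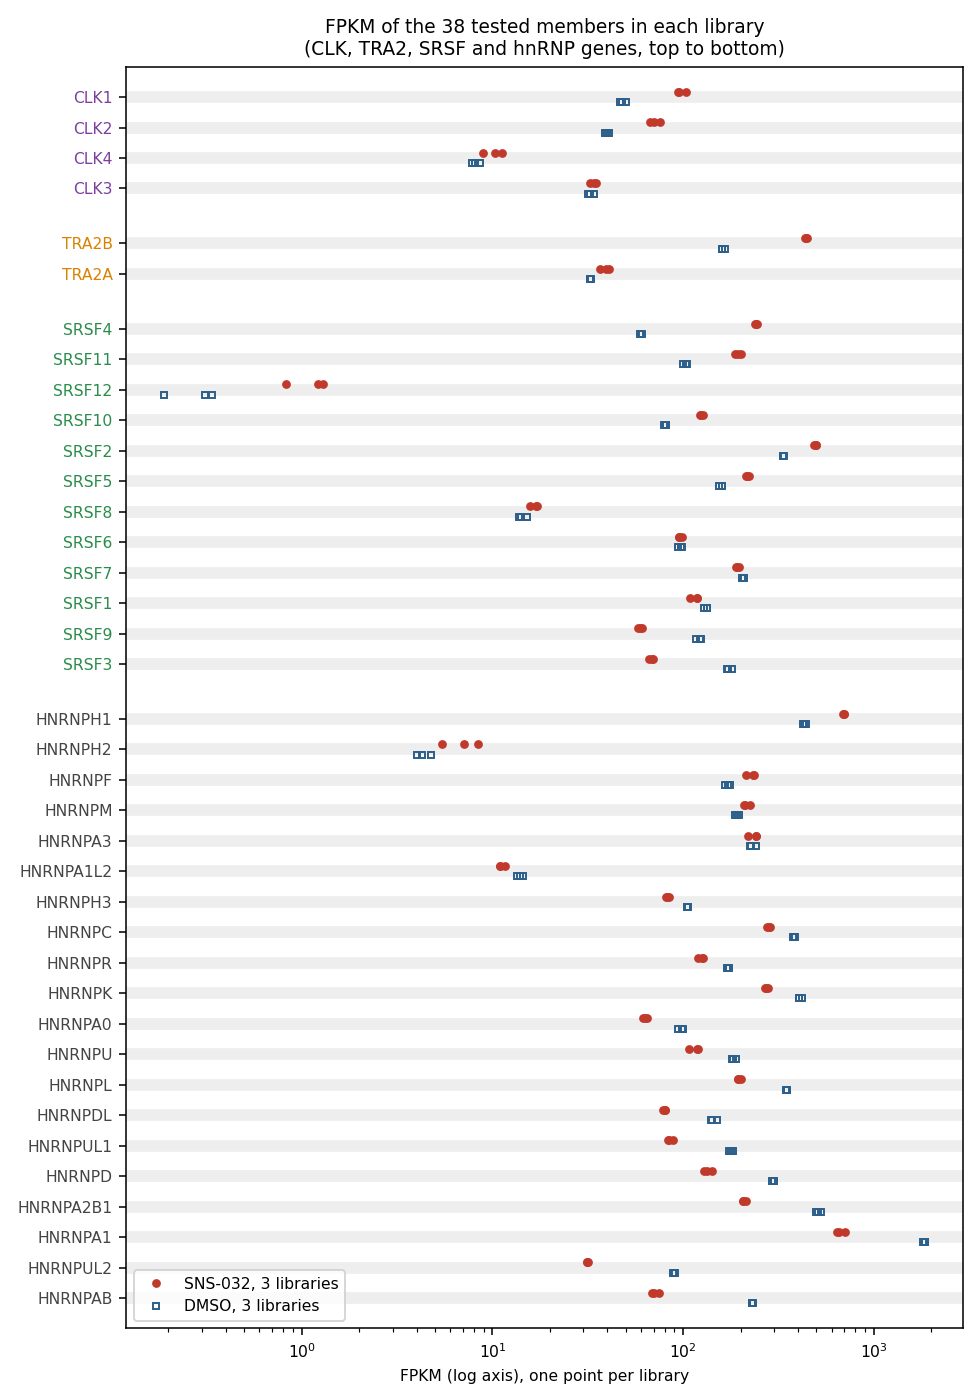
FPKM (log axis) of the 38 splicing-regulator genes that passed the filter, 1 point per library, with the 3 SNS-032 libraries as filled circles above the 3 DMSO libraries as open squares, and CLK, TRA2, SRSF and hnRNP genes from top to bottom. SRSF4 and TRA2B stand well to the right in SNS-032, and HNRNPA1, the most abundant of the genes in DMSO, stands well to the left.

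**Figure D2:**
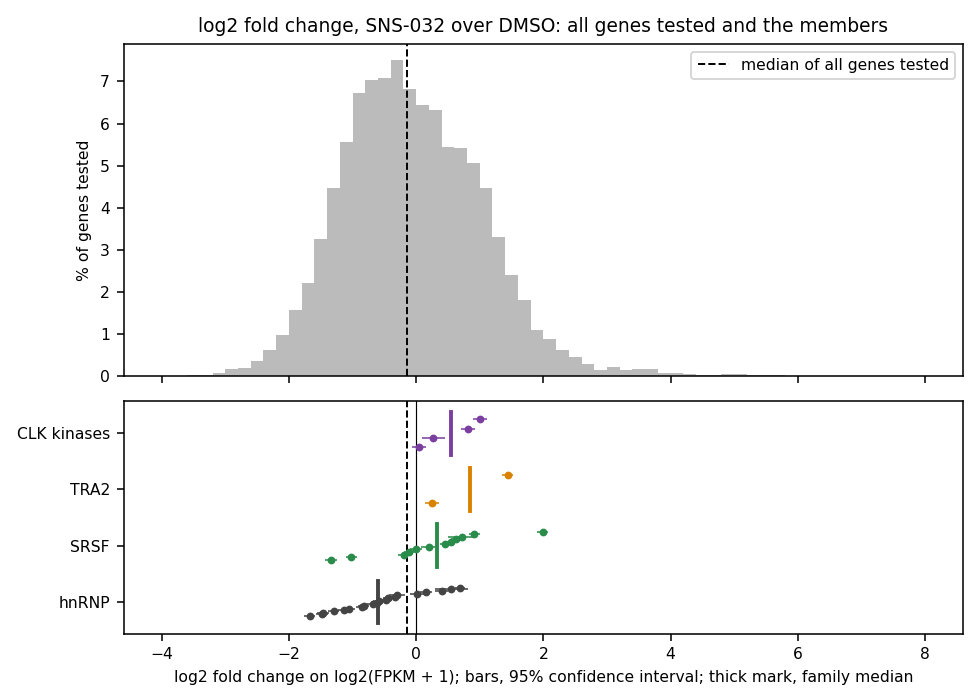
Upper panel, log2 fold changes (SNS-032 over DMSO) of all 12239 genes tested as a histogram in percent, with their median as a dashed line. Lower panel, the genes of each family as points with 95% confidence intervals and the family median as a vertical bar, from 0.84 for TRA2 to −0.61 for hnRNP genes.

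The CLK kinases were higher as a family, led by CLK1. CLK1 (Entrez gene 1195, chromosome 2 from 200853009 to 200864744, minus strand, GENCODE models on GRCh38) encodes a dual-specificity kinase whose own transcript is known to be held in the nucleus with introns retained. It had 95.1, 94.3 and 104 FPKM in the SNS-032 libraries, against 46.7, 47.5 and 50.3 FPKM in the DMSO libraries. The groups stood well apart, with means of 97.8 ± 5.28 and 48.2 ± 1.88 FPKM (SD, n = 3 each), a 2.03-fold increase (log2 fold change 1.01, SE 0.0501, limma adjusted p = 1.77e-09). CLK2, a kinase of the same family that also acts in liver metabolism, had 76.0, 70.7 and 66.7 FPKM with SNS-032, against 39.1, 41.0 and 40.0 FPKM with DMSO. Every SNS-032 library again lay above every DMSO library, and the increase was 1.78-fold (log2 fold change 0.81, limma adjusted p = 1.87e-08). CLK4, the closest relative of CLK1, was the least abundant of the 4, with 11.2, 8.88 and 10.3 FPKM in SNS-032 and 8.65, 7.79 and 8.14 FPKM in DMSO. The groups did not overlap, though the lowest SNS-032 library and the highest DMSO library nearly met, and the rise was 1.24-fold (log2 fold change 0.27, limma adjusted p = 0.00692). CLK3 differed from its relatives, with 32.4, 34.7 and 34.1 FPKM with SNS-032 and 31.5, 32.4 and 34.1 FPKM with DMSO, and the groups overlapped. Its log2 fold change was 0.05 (95% confidence interval −0.07 to 0.16, limma adjusted p = 0.405). Of the 13 alternatives run, median centring alone called CLK3 higher, at 0.34.

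Other kinases that act on SR proteins moved in both directions. Of 6 such genes outside the CLK family, 3 were higher, 2 lower and 1 did not pass, and their median log2 fold change was 0.37. Over all genes tested 39.9% were higher and 49.3% lower. DYRK1A, a dual-specificity kinase encoded on chromosome 21, had 86.7, 90.0 and 94.3 FPKM with SNS-032, against 17.0, 16.7 and 16.3 FPKM with DMSO. At 5.43-fold it was a larger increase than that of any CLK gene (log2 fold change 2.37, limma adjusted p = 1.43e-12). PRPF4B, a kinase of the assembling spliceosome, rose by 0.96 on the log2 scale (limma adjusted p = 1.65e-09). The SRPK family moved in both directions. SRPK3, known for its part in muscle and named here after its values were seen, had 68.9, 62.8 and 60.1 FPKM with SNS-032 and 42.1, 43.3 and 40.7 FPKM with DMSO, and rose by 0.59 on the log2 scale (limma adjusted p = 5.4e-07). SRPK1 had 19.4, 20.5 and 21.4 FPKM with SNS-032 and 46.7, 45.4 and 45.4 FPKM with DMSO, a log2 fold change of −1.13 (limma adjusted p = 6.52e-10), and SRPK2 fell by 0.45 (limma adjusted p = 1.41e-05). TNPO3, the importin that carries phosphorylated SR proteins into the nucleus, was also lower, with 11.5, 12.9 and 14.3 FPKM in SNS-032, against 33.2, 31.8 and 32.1 FPKM in DMSO (log2 fold change −1.27, limma adjusted p = 4.58e-09). Of the 3 importins listed for SR proteins and hnRNPs, 1 rose and 2 fell.

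Among the SR and SR-like proteins the largest increases on the log2(FPKM + 1) scale were those of SRSF4 and TRA2B. SRSF4 (Entrez gene 6429, chromosome 1 from 29147743 to 29181987, minus strand), an SR protein with an unusually long arginine-serine domain, had 241, 237 and 245 FPKM in SNS-032, against 60.6, 59.6 and 59.9 FPKM in DMSO. The libraries of each group lay within a few FPKM of each other while the means differed 4.02-fold (log2 fold change 1.99, SE 0.0371, limma adjusted p = 9.46e-13), which placed SRSF4 at percentile 96.4 of all log2 fold changes. TRA2B (Entrez gene 6434, chromosome 3 from 185915906 to 185938136, minus strand), which binds purine-rich exonic enhancers, had 443, 434 and 448 FPKM with SNS-032 and 166, 159 and 161 FPKM with DMSO. Its means were 442 ± 7.14 and 162 ± 3.62 FPKM (SD, n = 3 each), a 2.72-fold rise (log2 fold change 1.44, SE 0.038, limma adjusted p = 9.57e-12). Its paralog TRA2A changed far less, with 40.8, 36.9 and 39.5 FPKM with SNS-032 and 33.0, 32.3 and 32.6 FPKM with DMSO (log2 fold change 0.25, limma adjusted p = 0.000489). TRA2B made up 91.9% of the FPKM of the pair with SNS-032 and 83.2% with DMSO.

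A second tier of SR protein genes rose by smaller amounts on that scale. SRSF11, an SR-related protein that contacts splice-site factors, had 195, 186 and 202 FPKM in SNS-032 and 103, 100.2 and 104 FPKM in DMSO (1.90-fold higher, log2 fold change 0.92, limma adjusted p = 8.17e-10). SRSF10, which turns into a general splicing repressor when dephosphorylated, had 123, 124 and 128 FPKM with SNS-032 and 80.9, 79.1 and 81.6 FPKM with DMSO (log2 fold change 0.63, limma adjusted p = 1.24e-08). SRSF2, the nuclear-speckle protein recurrently mutated in myelodysplastic syndromes, was the most abundant SRSF gene of both groups, with 497, 498 and 486 FPKM in SNS-032 and 335, 335 and 338 FPKM in DMSO (log2 fold change 0.55, limma adjusted p = 2.31e-08). In all 3 genes the SNS-032 libraries lay clear of the DMSO libraries. SRSF5, a shuttling SR protein, had 215, 222 and 216 FPKM with SNS-032, against 160.2, 155 and 159 FPKM with DMSO (log2 fold change 0.46, limma adjusted p = 1.59e-07). SRSF8, a retrogene copy of SRSF2, had 17.2, 16.9 and 15.8 FPKM with SNS-032 and 13.7, 14.1 and 15.2 FPKM with DMSO (log2 fold change 0.20, limma adjusted p = 0.00709). The SRSF8 groups lay close together without overlapping, and reads shared with SRSF2 could have been split between the 2 genes. SRSF12, which antagonizes other SR proteins, was scarce, with 1.30, 0.83 and 1.21 FPKM in SNS-032, against 0.19, 0.34 and 0.31 FPKM in DMSO (log2 fold change 0.72, limma adjusted p = 2.82e-05). The ratio of its means was 3.98, which the added 1 FPKM shrinks at so low a level. Since SRSF12 entered the test only through its level in SNS-032, its call is no support for the count of SRSF genes that rose.

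The decreases among the SR proteins were led by SRSF3 and SRSF9. SRSF3 (Entrez gene 6428, chromosome 6 from 36594353 to 36605600, plus strand), the smallest SR protein and an adaptor for mRNA export, had 66.0, 68.5 and 69.6 FPKM with SNS-032, against 180.2, 169 and 172 FPKM with DMSO. Its level was 2.56-fold lower (log2 fold change −1.34, SE 0.0419, limma adjusted p = 3.63e-11). SRSF9, a relative of SRSF1 with a short arginine-serine domain, had 58.0, 60.9 and 59.1 FPKM with SNS-032 and 117, 123 and 124 FPKM with DMSO, and was 2.04-fold lower (log2 fold change −1.02, limma adjusted p = 3.74e-10). No library of one treatment came near those of the other for either gene. SRSF1, the prototype SR protein and a known proto-oncogene, had 109, 118 and 118 FPKM in SNS-032 and 133, 129 and 134 FPKM in DMSO, a small decrease (log2 fold change −0.20, limma adjusted p = 0.000934). SRSF7, another export adaptor, had 191, 188 and 196 FPKM with SNS-032 and 209, 207 and 204 FPKM with DMSO (log2 fold change −0.11, limma adjusted p = 0.015). SRSF6, a close paralog of SRSF4, had 94.6, 95.3 and 99.2 FPKM with SNS-032 and 93.8, 97.9 and 98.3 FPKM with DMSO, and the groups overlapped (95% confidence interval of the log2 fold change −0.09 to 0.08, limma adjusted p = 0.916). The direction of these last 3 genes depended on the scaling, since under median centring the log2 fold changes were 0.10 for SRSF1, 0.19 for SRSF7 and 0.29 for SRSF6, all called higher. The SRSF7 call was also lost without DMSO replicate 1 (limma adjusted p = 0.0543) and without the trended, robust variance (limma adjusted p = 0.0615).

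The hnRNPs were lower as a family, and the most abundant of them, HNRNPA1, fell most in absolute terms. Part of the family's distance from other genes went with abundance. With a filter at 5 FPKM, which kept all 20 tested hnRNP genes, their median stayed at −0.61 and that of all genes was −0.32. The difference of these medians was −0.29, against −0.47 with the filter at 1 FPKM. HNRNPA1 (Entrez gene 3178, chromosome 12 from 54280193 to 54287088, plus strand), a shuttling protein that represses many exons, had 702, 639.6 and 657 FPKM in SNS-032, against 1855, 1812 and 1858 FPKM in DMSO. The means were 666 ± 32.5 and 1842 ± 25.6 FPKM (SD, n = 3 each), a 2.76-fold decrease (log2 fold change −1.47, limma adjusted p = 2.78e-11). GENCODE lists 74 named pseudogenes of HNRNPA1, and reads shared with such copies make its level uncertain. HNRNPA2B1, its close partner in exon repression and RNA transport, had 213, 206 and 207 FPKM with SNS-032 and 513, 500.2 and 529 FPKM with DMSO (2.46-fold lower, log2 fold change −1.30, limma adjusted p = 2.99e-11). The largest fold decrease was that of HNRNPAB (Entrez gene 3182, chromosome 5 from 178204507 to 178211163, plus strand), a protein related to HNRNPD, with 69.1, 70.6 and 75.0 FPKM in SNS-032, against 229, 234 and 229.6 FPKM in DMSO. This 3.22-fold decrease (log2 fold change −1.68, SE 0.0417, limma adjusted p = 6.61e-12) lay at percentile 5.31 of all log2 fold changes. 

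HNRNPUL2 and HNRNPUL1, relatives of HNRNPU with roles in the response to DNA breaks, both fell. HNRNPUL2 had 31.2, 31.8 and 31.5 FPKM in SNS-032 and 89.0, 90.2 and 90.0 FPKM in DMSO (2.85-fold lower, log2 fold change −1.48, limma adjusted p = 1.28e-11). HNRNPUL1 had 83.3, 88.0 and 84.8 FPKM in SNS-032 and 177, 175 and 183 FPKM in DMSO (2.09-fold lower, log2 fold change −1.05, limma adjusted p = 1.81e-10). Exons of HNRNPUL2 are shared with a readthrough transcript into BSCL2. The libraries within a group were close for both genes, and the gap between groups was many times their spread. HNRNPD, which binds AU-rich elements and sets mRNA stability, had 141, 133 and 128 FPKM with SNS-032 and 299.8, 291 and 298 FPKM with DMSO (2.21-fold lower, log2 fold change −1.14, limma adjusted p = 1.61e-10). HNRNPU, a scaffold protein that ties RNA to chromatin, had 108, 119.9 and 118 FPKM with SNS-032 and 183, 180.1 and 188 FPKM with DMSO (log2 fold change −0.67, limma adjusted p = 3.51e-08). HNRNPK, a poly(C)-binding protein with KH domains, had 278, 268 and 271 FPKM in SNS-032 and 419, 406 and 405 FPKM in DMSO (log2 fold change −0.59, limma adjusted p = 1.84e-08). HNRNPC, which binds uridine tracts and keeps Alu-derived exons out of mRNA, had 276, 287 and 281 FPKM in SNS-032 and 376, 379.7 and 388 FPKM in DMSO (log2 fold change −0.44, limma adjusted p = 2.83e-07). In each of these 4 genes the highest SNS-032 library lay well below the lowest DMSO library.

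The other 6 decreases that passed the test lay between −0.85 and −0.30 on the log2 scale. HNRNPDL, the paralog of HNRNPD, and HNRNPL, which binds CA repeats, had log2 fold changes of −0.85 and −0.83. HNRNPA0, HNRNPR and HNRNPH3 had log2 fold changes of −0.62, −0.47 and −0.34, with limma adjusted p values of 3.84e-08, 2.17e-07 and 3.2e-06. HNRNPA1L2, an HNRNPA1-like copy, had 10.96, 10.9 and 11.7 FPKM with SNS-032 and 13.4, 14.5 and 14.0 FPKM with DMSO (log2 fold change −0.30, limma adjusted p = 0.000429). Under median centring neither HNRNPH3, at −0.04, nor HNRNPA1L2, at 0.00357, passed the test. HNRNPA3, a relative of HNRNPA1, had 219, 239.7 and 242 FPKM with SNS-032 and 224, 228 and 242 FPKM with DMSO, and its groups overlapped (log2 fold change 0.02, 95% confidence interval −0.09 to 0.12, limma adjusted p = 0.762). Median centring put HNRNPA3 at 0.31, called higher.

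The hnRNP genes called higher were HNRNPH1, HNRNPH2 and HNRNPF, of the G-tract binding subfamily, and HNRNPM. HNRNPH3, of the same subfamily, was lower, as given above. HNRNPH1 (Entrez gene 3187, chromosome 5 from 179614178 to 179634784, minus strand), which binds runs of guanines beside exons, had 695, 691 and 699 FPKM in SNS-032, against 429.9, 426 and 439.9 FPKM in DMSO, and was 1.61-fold higher (log2 fold change 0.69, SE 0.0373, limma adjusted p = 3.91e-09). Its X-linked paralog HNRNPH2 had 5.42, 8.36 and 7.08 FPKM with SNS-032 and 4.26, 4.02 and 4.79 FPKM with DMSO (log2 fold change 0.56, SE 0.12, limma adjusted p = 0.00105). The low level of HNRNPH2 went with a wider spread between SNS-032 libraries, and its exons are shared with a readthrough transcript of RPL36A. HNRNPF, a further member of the subfamily, had 213, 231 and 235 FPKM in SNS-032 and 176, 171 and 166 FPKM in DMSO (1.32-fold higher, log2 fold change 0.40, limma adjusted p = 3.81e-06). HNRNPM, which binds GU-rich sequences, had 225, 207 and 210.0 FPKM in SNS-032 and 192, 187 and 196 FPKM in DMSO (log2 fold change 0.16, limma adjusted p = 0.00387). Every SNS-032 library was above every DMSO library in all 4 genes that were higher.

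A further 5 hnRNP genes stayed under 1 FPKM in both groups and were not tested. HNRNPLL, which controls CD45 splicing in lymphocytes, had 0.25, 0.31 and 0.23 FPKM with SNS-032 and 0.03, 0 and 0.03 FPKM with DMSO. The HNRNPC-like copies HNRNPCL1, HNRNPCL2, HNRNPCL3 and HNRNPCL4 were between 0 and 0.21 FPKM in all libraries, and HNRNPCL3 and HNRNPCL4 were listed at 0 in every DMSO library. The SNS-032 libraries lay above the DMSO libraries for HNRNPLL, all close to 0, and the groups of each HNRNPC-like copy met at 0 FPKM.

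Of the 38 genes, 3 rose and 8 fell by at least 2-fold on the log2(FPKM + 1) scale with an adjusted p under 0.05, beside 16.6% and 19.5% of all genes tested. Those that rose were CLK1, TRA2B and SRSF4. Those that fell were SRSF3, SRSF9, HNRNPA1, HNRNPA2B1, HNRNPAB, HNRNPD, HNRNPUL1 and HNRNPUL2. In 16 genes all SNS-032 libraries lay above all DMSO libraries and in 19 below, beside 40.2% and 49.5% of all genes tested and 89.7% in either direction.

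Summed over the family, hnRNP genes had 3775 to 3819 FPKM in the SNS-032 libraries and 5963 to 6114 FPKM in the DMSO libraries. This was 0.776 to 0.806% against 1.28 to 1.32% of each library's total FPKM. The sum with SNS-032 was 0.629 of that with DMSO, and 0.747 once HNRNPA1 was left out, so the family was lower with and without its most abundant gene. HNRNPA1 supplied 17.5% of hnRNP FPKM with SNS-032 and 30.5% with DMSO, whereas HNRNPH1 supplied 18.3% and 7.15%. HNRNPA1 was the most abundant hnRNP gene by far in all DMSO libraries, while in SNS-032 libraries the levels of HNRNPA1 and HNRNPH1 overlapped. SRSF genes summed to 1808 to 1836 FPKM with SNS-032 and 1470 to 1490 FPKM with DMSO, a ratio of 1.23 that was 1.11 without SRSF4. CLK genes summed to 209 to 215 FPKM in SNS-032 and 126 to 133 FPKM in DMSO.

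**Figure D3:**
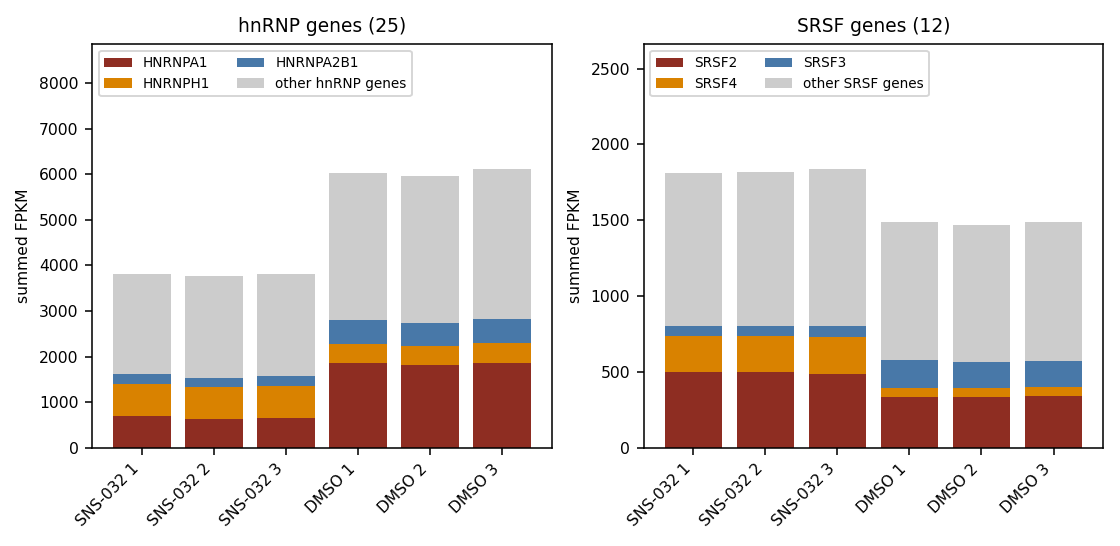
Summed FPKM of the 25 hnRNP genes (left panel) and the 12 SRSF genes (right panel), 1 stacked bar per library from 0, with the SNS-032 libraries left of the DMSO libraries and 3 genes of each family in colour below the rest in grey. The hnRNP bars are shorter with SNS-032 (3775 to 3819 against 5963 to 6114 FPKM), mostly through the HNRNPA1 segment and the grey segment, and the SRSF bars are taller (1808 to 1836 against 1470 to 1490 FPKM).

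Paralogs within the families changed unequally. In each library the log2 ratio of FPKM + 1 was taken for 13 pairs, and the difference between treatments was tested with an exact two-sided permutation test over libraries, which cannot go below p = 0.1 with 3 libraries against 3. In 12 of the 13 pairs the ratios of the groups did not overlap (exact permutation p = 0.1, Benjamini-Hochberg adjusted p = 0.108 over the 13 pairs), so no pair could pass. Among single genes the groups did not overlap for 89.7% of all genes tested, so separation was common here. The share among pairs of other genes was not computed. SRSF4/SRSF6 shifted most, by 1.99 on the log2 scale. SRSF4 stood at 2.47 to 2.55 times the level of SRSF6 in SNS-032 libraries and at 0.609 to 0.646 times in DMSO libraries, so the order of the 2 genes turned round. The ratio of SRSF3 to its fellow export adaptor SRSF7 differed by −1.23 and that of TRA2A to TRA2B by −1.19. SRSF1/SRSF9, CLK2/CLK3 and CLK1/CLK4 differed by 0.82, 0.77 and 0.73, with SRSF1, CLK2 and CLK1 gaining over their partners. Each difference equals that between the log2 fold changes of the 2 genes, so it restates the changes of single genes. By construction, ratios moved less where both genes changed alike. HNRNPA1/HNRNPA2B1 differed by −0.17, HNRNPD/HNRNPDL by −0.29, HNRNPH1/HNRNPF by 0.28, SRSF2/SRSF8 by 0.35 and HNRNPUL1/HNRNPUL2 by 0.43. HNRNPH1/HNRNPH2 differed by 0.13 with overlapping groups (exact permutation p = 0.6), and without SNS-032 replicate 1 the difference was −0.017. HNRNPL/HNRNPLL differed by −1.13, a value set largely by HNRNPL and the added 1 FPKM because HNRNPLL was close to 0.

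**Figure D4:**
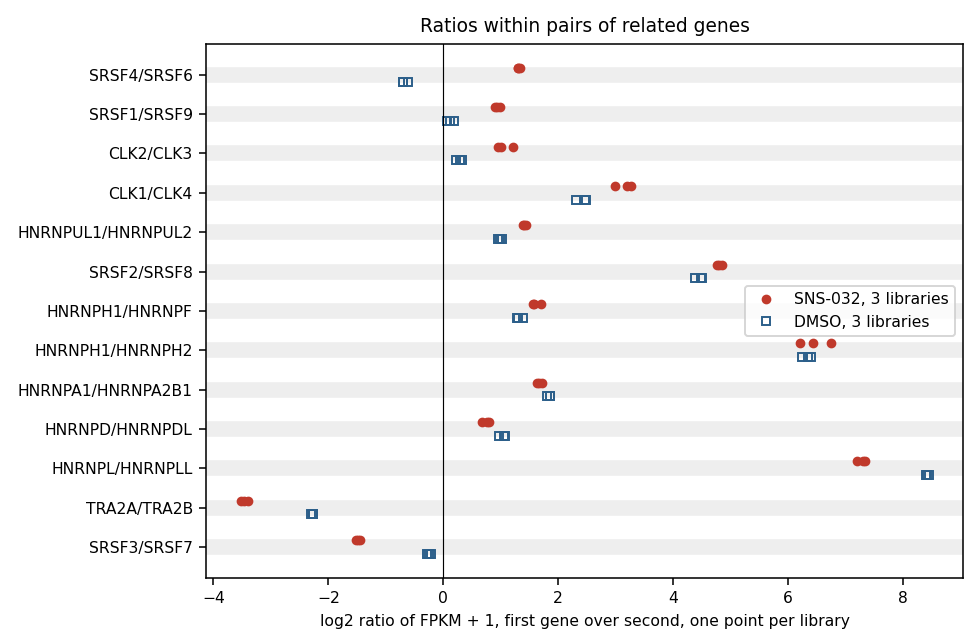
Log2 ratio of FPKM + 1 for 13 paralog pairs, 1 point per library, SNS-032 and DMSO libraries in separate colours. SRSF4/SRSF6 shows the widest gap between treatments, and HNRNPH1/HNRNPH2 is the pair whose libraries overlap.

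The same directions were examined in lists of related splicing genes, chosen, like the families, with earlier results of these data known. The counts of each list stand beside 39.9% higher and 49.3% lower over all genes tested. Of 13 hnRNP proteins that carry other symbols, 3 were higher and 10 lower (median log2 fold change −0.66). RBMX, the X-linked hnRNP G, had 88.9, 85.6 and 90.2 FPKM with SNS-032 and 260.2, 257 and 257 FPKM with DMSO (log2 fold change −1.54, limma adjusted p = 6.07e-12). PTBP1, the polypyrimidine-tract binding repressor, fell little (log2 fold change −0.18, limma adjusted p = 0.000522), and its neuronal paralog PTBP2, which PTBP1 is known to silence through NMD, had 19.6, 17.7 and 18.6 FPKM in SNS-032 and 10.9, 11.4 and 10.6 FPKM in DMSO (log2 fold change 0.71, limma adjusted p = 1.64e-07). Of 25 SR-related splicing factors, 17 were higher, 4 lower and 4 did not pass (median 0.43). SON, a scaffold of nuclear speckles, had 318, 316 and 330.1 FPKM with SNS-032 and 90.0, 92.3 and 89.5 FPKM with DMSO (log2 fold change 1.81, limma adjusted p = 1.93e-12). The speckle scaffold SRRM2 and the U2AF-related factor RBM39 rose by 1.09 and 1.46 on the log2 scale. The subunits of U2AF, which recognizes the end of the intron, moved apart, with log2 fold changes of 0.80 for the large subunit U2AF2 and −0.91 for the small subunit U2AF1 (limma adjusted p = 1.25e-09 and 5.94e-10).

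Among 22 other regulators of alternative splicing, 16 passed the filter, 10 were higher, 4 lower and 2 did not pass (median 0.30). Among the 10 was ESRP2, an epithelial splicing factor named here after its values were seen, with 2.02, 1.82 and 1.77 FPKM in SNS-032, against 0.06, 0.14 and 0.07 FPKM in DMSO, which entered the test only through its level in SNS-032. With a filter at 5 FPKM, which removed ESRP2 from the list, 9 of 15 were higher, and over all alternatives run the number higher was 9 to 12. At 5 FPKM, 3144 of all 9163 genes tested were higher and 5165 lower. RBFOX2, which reads GCAUG motifs beside exons, rose by 1.43 on the log2 scale, and MBNL1, the factor sequestered in myotonic dystrophy, fell by 0.95 (limma adjusted p = 1.02e-08 and 3.98e-09). Of 15 NMD factors, 6 were higher, 8 lower and 1 did not pass (median −0.49). These shares were near the 39.9% higher and 49.3% lower of all genes tested. The log2 fold changes of the NMD factors ran from −2.01 to 1.64. UPF1, the helicase at the centre of NMD, and SMG1, the kinase that phosphorylates it, were higher by 0.72 and 0.53 (limma adjusted p = 5.32e-07 and 1.44e-06). The list of SR-related factors thus held more genes that rose than fell, the list of other hnRNPs more that fell than rose, and the NMD list genes of both directions.

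**Figure D5:**
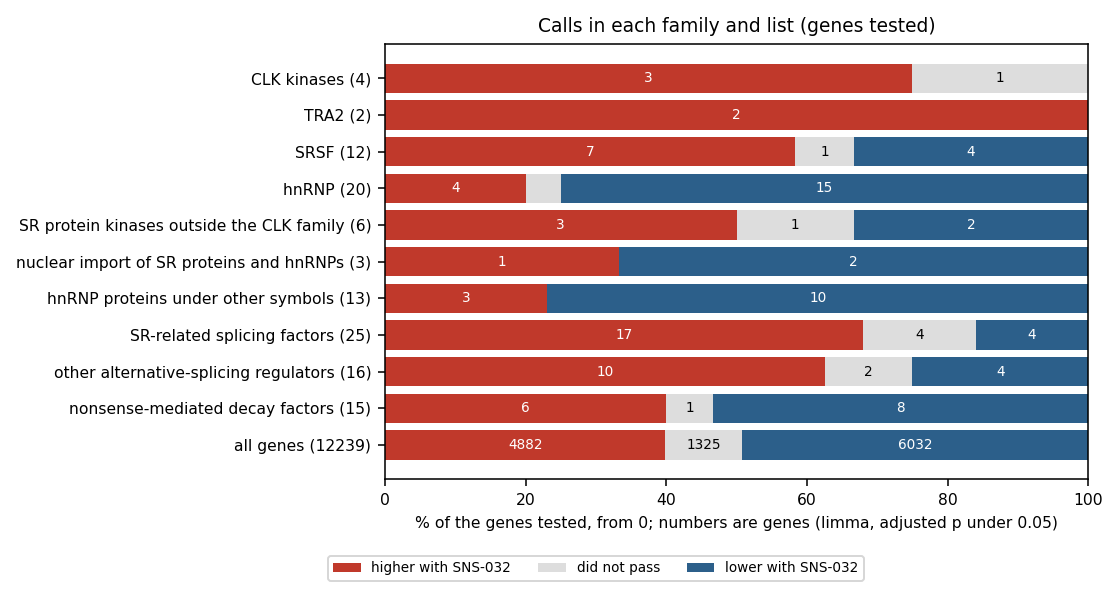
Percent of the tested genes of each family and list that were higher, lower or not called with SNS-032 (limma adjusted p under 0.05), beside all 12239 genes tested. Of all genes tested 39.9% were higher and 49.3% lower, while 15 of 20 hnRNP genes and 10 of 13 other hnRNP proteins were lower and 17 of 25 SR-related factors were higher.

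The gene models of the splicing regulators differ from those of most genes in features that bear on how a gene-level FPKM is read. In GENCODE (version 29, GRCh38) all 12 SRSF genes, both TRA2 genes, 3 of 4 CLK genes and 12 of 20 tested hnRNP genes have at least 1 transcript annotated as an NMD target, together 76.3% of the tested splicing regulators against 43.2% of the 12007 tested genes that have a model. Transcripts with a retained intron are annotated for 71.1% of them, against 57.0% of tested genes. The splicing regulators have more annotated transcripts, with a median of 11 against 7, and so more in which such a form can be listed. A gene-level FPKM adds up all these transcripts, and the files give no value per transcript, so productive mRNA and NMD or intron-retaining forms cannot be told apart here. The genes are also short, with a median of 9687 bases for SRSF and 15400 bases for tested hnRNP genes, against 30620 bases for all genes. Exons of 19 of the 38 tested genes overlap another gene, 13 of them a gene on the other strand, among them SRSF2 with MFSD11, SRSF9 with GATC, HNRNPA2B1 with CBX3, HNRNPU with COX20 and HNRNPAB with PHYKPL. Whether the counting used strand is not given in the sources used here, so the levels of these genes carry that uncertainty.

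Promoter sequences are shown for the 3 hnRNP genes among those with the largest decreases that have one in the RefSeq table used here, and for the SR and SR-like genes with the highest log2 fold changes. Each is 300 bases from 250 before to 50 after the transcription start, 5′ to 3′ on the strand of the gene, on GRCh38.p14. Capitals mark every match, on either strand, to the letters TATAAA (the TATA box), CCAAT (the CCAAT box, read by the NFY complex), CACGTG (an E-box), TGACGTCA (the cyclic AMP response element), GGGCGG (the GC box) or CCGGAAG (read by ETS factors). None of these letter strings contains another, though neighbouring matches may share end letters. The windows are HNRNPAB at chr5:178204283-178204582 (plus strand), HNRNPUL2 at chr11:62727408-62727707, HNRNPA2B1 at chr7:26200697-26200996, SRSF4 at chr1:29181851-29182150 and TRA2B at chr3:185937965-185938264 (all minus strand).
HNRNPAB: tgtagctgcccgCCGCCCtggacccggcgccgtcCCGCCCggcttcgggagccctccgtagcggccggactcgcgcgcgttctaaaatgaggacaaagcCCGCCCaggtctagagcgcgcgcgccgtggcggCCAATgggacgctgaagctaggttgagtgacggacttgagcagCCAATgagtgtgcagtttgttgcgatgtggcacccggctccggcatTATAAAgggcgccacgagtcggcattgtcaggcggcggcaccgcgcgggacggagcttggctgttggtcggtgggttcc
HNRNPUL2: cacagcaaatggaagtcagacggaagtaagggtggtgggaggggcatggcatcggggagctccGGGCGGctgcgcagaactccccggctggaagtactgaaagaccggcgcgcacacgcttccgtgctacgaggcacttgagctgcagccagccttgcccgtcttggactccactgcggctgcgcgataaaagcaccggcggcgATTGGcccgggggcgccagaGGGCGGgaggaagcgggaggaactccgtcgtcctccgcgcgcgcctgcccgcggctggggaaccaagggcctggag
HNRNPA2B1: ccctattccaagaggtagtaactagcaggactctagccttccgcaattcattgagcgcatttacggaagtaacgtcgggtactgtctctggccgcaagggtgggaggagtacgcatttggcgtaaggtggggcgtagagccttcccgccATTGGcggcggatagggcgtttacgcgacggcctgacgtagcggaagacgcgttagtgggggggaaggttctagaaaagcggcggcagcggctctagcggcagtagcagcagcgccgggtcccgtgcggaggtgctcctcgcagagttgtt
SRSF4: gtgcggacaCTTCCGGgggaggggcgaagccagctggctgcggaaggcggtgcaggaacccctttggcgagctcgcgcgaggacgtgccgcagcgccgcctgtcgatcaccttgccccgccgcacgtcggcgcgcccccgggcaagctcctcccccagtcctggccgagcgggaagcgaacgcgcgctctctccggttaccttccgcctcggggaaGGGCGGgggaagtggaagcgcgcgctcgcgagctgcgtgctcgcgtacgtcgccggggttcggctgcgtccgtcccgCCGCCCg
TRA2B: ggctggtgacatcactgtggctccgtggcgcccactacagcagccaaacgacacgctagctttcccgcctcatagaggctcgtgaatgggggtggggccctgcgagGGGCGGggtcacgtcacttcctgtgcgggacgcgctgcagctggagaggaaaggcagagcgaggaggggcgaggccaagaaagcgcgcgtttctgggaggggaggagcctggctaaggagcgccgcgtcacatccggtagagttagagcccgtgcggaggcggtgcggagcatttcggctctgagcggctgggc

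The CCAAT letters (ATTGG on the other strand) occur in all 3 hnRNP windows shown and in neither of the others. Of 19 tested hnRNP genes with a promoter in the table, 16 (84.2%) hold CCAAT, against 2 of 11 SRSF genes (18.2%) and 43.6% of the 9950 tested genes with a promoter. Genes with several annotated starts have more windows in which to hold it. Counted by window, the shares were 18 of 30 (60.0%) for hnRNP, 3 of 14 (21.4%) for SRSF and 35.3% for all tested genes. By the direction of the expression change, 4 of 14 splicing regulators that rose and 13 of 18 that fell hold it, but most that fell are hnRNP genes. Of the hnRNP genes that rose, HNRNPH1, HNRNPH2 and HNRNPF hold it and HNRNPM does not. Those that fell and have a promoter in the table hold it, except HNRNPD and HNRNPA1L2. The 2 SRSF genes with it are SRSF8, which rose, and SRSF3, which fell. Direction was not tested apart from family. CACGTG occurs in 7 of 19 hnRNP genes (36.8%), in 0 of 11 SRSF genes and in 12.7% of tested genes. GGGCGG occurs in 74.3% of the 35 tested splicing regulators with a promoter and in 75.3% of tested genes, TATAAA in 17.1% and 8.57%, CCGGAAG in 14.3% and 23.1%, and TGACGTCA in 0 of 35 and 3.76%. These are matches of letters in fixed windows and were not tested.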

How the data were processed

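REH cells received 200 nM SNS-032 or DMSO for 24 h, RNA was extracted with TRIzol, and libraries were sequenced by standard BGISEQ protocols. The authors deposited 1 table of FPKM values for 18216 genes in 6 libraries. The submitters' processing notes name HISAT2 (version 2.0.4), RSEM and the build GRCh38.p12, and the sources used here do not say whether reads were counted by strand. Read totals are unknown, so counting intervals cannot be given. The table also holds 3 columns of the authors' own comparison (a log2 fold change, a p-value and a q-value), which were not used.

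Groups were taken from the labels. Genes averaging at least 1 FPKM in either group (12239) were tested on log2(FPKM + 1) with limma 3.58.1 (trended, robust variance, R 4.3.3, statmod 1.5.0) and Benjamini-Hochberg adjustment over all of them. A fold change on this scale understates the change of low genes. The procedure was tested on simulated data in which only a small part of the genes changed, so a shift of most genes was not covered. The splicing genes, the gene lists and the pairs were chosen with earlier results of these data known. Values by library were to be given for all tested CLK, TRA2 and SRSF genes, for the 6 hnRNP genes with the highest and the 6 with the lowest log2 fold change, and for HNRNPA1, HNRNPA2B1, HNRNPC, HNRNPK, HNRNPU and HNRNPM. From the other lists, 18 genes could be named whatever their change, of which 1 is not reported here. Alternatives were a pseudocount of 0.1, a filter at 5 FPKM or none, rescaling each library to a sum of 1000000, median centring, limma without trend or robust estimation, a replicate block and leaving out each library. Gene models were taken from GENCODE version 29 on GRCh38 and promoters from RefSeq on GRCh38.p14, which held 39 of the 43 genes. SRSF2, HNRNPA1, TRA2A and HNRNPCL3 had none. Protein sequences were not analysed here.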

Additional observations from a re-analysis of the deposited data

How the results depend on the processing

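The 38 tested splicing regulators were refitted under 13 alternatives, which gave 493 values. Of these, 475 kept their direction and their side of the threshold. With the direction kept, 3 lost the call and 2 gained one. The other 13 changed sign, and among these HNRNPA1L2 lost its call and SRSF6 gained one, both under median centring. Under every alternative run, 31 genes kept both their direction and their call. Median centring gave a median log2 fold change of 0.16 over all genes, 0.24 over the splicing regulators, 0.84 for CLK, 1.14 for TRA2, 0.63 for SRSF and −0.31 for hnRNP genes. It turned SRSF1 to 0.10, SRSF7 to 0.19, SRSF6 to 0.29 and HNRNPA1L2 to 0.00357, lost HNRNPH3 at −0.04, called CLK3 at 0.34 and HNRNPA3 at 0.31, and left 2 SRSF genes and 2 SR-related factors lower. Rescaling each library to a sum of 1000000 gave medians of −0.11 over all genes, 0.51 for CLK, 0.80 for TRA2, 0.29 for SRSF and −0.66 for hnRNP genes, with HNRNPA3 at −0.033 and CLK3 at −0.0021. A filter at 5 FPKM left 3144 genes higher and gave medians of −0.32 over all genes and 0.20 for SRSF genes. Without a filter the medians were 0.023 over all genes and −0.44 for hnRNP genes, and a pseudocount of 0.1 gave −0.16 over all genes. SRSF7 was not called without trend or robust estimation (limma adjusted p = 0.0615) or without DMSO replicate 1 (limma adjusted p = 0.0543). Leaving out 1 library at a time gave ranges of 0.48 to 0.59 for the CLK median, −0.010 to 0.061 for HNRNPA3, −0.026 to 0.0083 for SRSF6 and −0.017 to 0.26 for HNRNPH1/HNRNPH2, the last with its negative value without SNS-032 replicate 1. Replicate numbers did not pair the libraries (correlations of same-numbered deviations −0.119, 0.0136 and −0.0164), and a fit with the replicate number as a block called 4862 genes higher and 5989 lower and moved no call of the 38 genes, while in the list of other alternative-splicing regulators it called 9 higher, against 10 without the block. Causes of these shifts were not tested. Depth is unknown, and genes under 1 FPKM could not be compared.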
